A study of Rattus norvegicus with 24 samples.

Results

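The genes described here encode the proteins of the mitochondrial ribosome. They were chosen by symbol alone, as every entry of the deposited expression table named Mrpl (large subunit) or Mrps (small subunit) followed by a number and at most 1 letter. There were 71 such genes among 17420 entries, 43 Mrpl and 28 Mrps. Of these, 56 (34 Mrpl and 22 Mrps) were among the 5086 genes with a mean level above 1 in each group and were tested. The other 15 were below that level and are given by name and level only.

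RNA was sequenced from the dissected hippocampus and neocortex of 24 Sprague-Dawley rat fetuses on embryonic day 18, 6 pups in each of 4 maternal treatment groups. Saline pups, the controls, came from dams injected with saline on gestational day 17. MAM pups came from dams given 22 mg/kg methylazoxymethanol acetate, a DNA-methylating agent that blocks the division of neural precursors, on the same day. Poly I:C pups came from dams given 7.5 mg/kg polyinosine:cytosine, a double-stranded RNA that mimics a viral infection, also on gestational day 17. The tissue of these 3 groups was collected 18 hours after the injection. Low Protein pups came from dams fed a diet with 6.1% protein for about a week before collection, against 20.3% in an isocaloric control diet. No injection of the Low Protein dams is described in the sources used here, and whether every injected dam ate the control diet is not given either. Every group is made up of 2 litters with 3 pups apiece, so 2 dams carry each treatment, and p-values over pups measure the spread between pups more than between dams. Which pups share a litter was read from the first digit of the sample number. The labels do not state it, so every result by litter rests on that reading. Both sexes were pooled.

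Mitochondria keep a small genome that encodes core subunits of the respiratory chain, and a ribosome of their own translates it. The RNA of that ribosome is mitochondrial, but all of its proteins are encoded in the nucleus, made in the cytosol and imported. Many have a counterpart in the bacterial ribosome, while others were added in the course of mitochondrial evolution, and the symbols do not tell these classes apart. Some names mislead: Mrps18a and Mrps30 are found in the large subunit, and Mrps36 is a component of the 2-oxoglutarate dehydrogenase complex.

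The values were TPM as deposited, a unit that by its definition divides reads by transcript length and scales every pup to the same total, and the members together held 0.507 to 0.608% of the summed value of a pup. Depth was not given in the table, but the steps between low values put it at 24.3 to 63.1 M (mega) reads per pup, with group medians of 42.6 M for saline, 43.1 M for Low Protein, 41.3 M for MAM and 29.9 M for Poly I:C. The markers of the excitatory lineage of cortex and hippocampus were present in every pup (8 of 10 found in the table, summed level 204 to 409). Marker levels varied among pups: saline pup 2.1 had the highest summed level of 6 ganglionic eminence and interneuron markers (96.6, against a saline median of 59.5), and Low Protein pup 2.2 the highest of 5 meningeal markers (31.3, against a Low Protein median of 8.27). Low Protein pup 2.2 was also the highest for endothelial, microglial and blood markers. Blood markers (3 of 4 found) summed to 1863 to 4550 per pup, of a total of 70350.1, and choroid plexus markers to 32.3 to 243. The part of these differences in the values below was not tested. In bulk tissue, fewer cells of a type and less RNA per cell cannot be told apart.

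Levels of the members spanned a wide range. In saline pups, the highest means among large subunit genes were those of Mrpl17 (34.6 ± 0.657 TPM, SD, n = 6), Mrpl34 (34.2 ± 2.85) and Mrpl41 (29.9 ± 1.66), of which Mrpl17 and Mrpl34 did not differ beyond their spread. Among small subunit genes Mrps34 (22.5 ± 3.36), Mrps26 (21.1 ± 1.36) and Mrps2 (10.9 ± 1.31) were the highest. The lowest tested gene was Mrps18c, at 1.13 ± 0.131. The order followed genomic span. Over the 68 members with at least 10 estimated reads in the median pup, Spearman's rho between the saline mean and the genomic span of the gene was -0.87, a description across genes that share all 24 libraries and are not replicates. Over all genes tested, with the mean of all pups, rho was -0.448. The reads that picked the 68 members were themselves estimated per genomic span. The deposited value appears to be scaled per genomic span, but the sources do not state the length used. If so, a level compared between genes is a level per base of gene and not per base of transcript. The length of a gene drops out of a ratio between pups, but the lengths of all genes enter the total to which each pup is scaled.

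**Figure D1:**
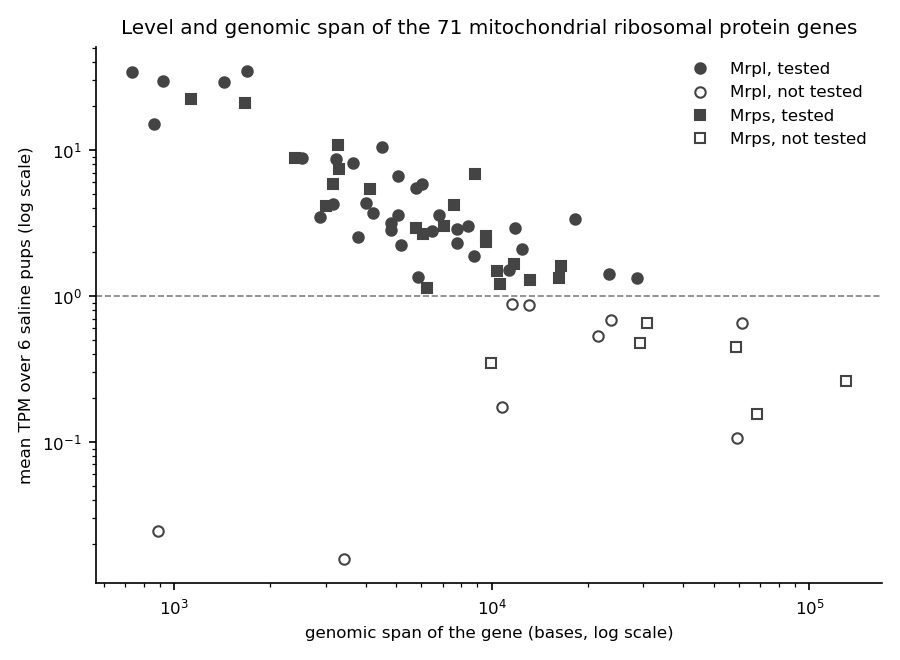
Mean TPM over 6 saline pups (vertical axis, log scale) against the genomic span of the gene in bases (horizontal axis, log scale) for the 71 genes; circles are Mrpl, squares Mrps, open symbols the 15 genes not tested, and the dashed line a level of 1. Levels fall with span, and most genes not tested have a long span, with a median of 23778 bases against 5763.5 for the genes tested.

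The 15 genes not tested were Mrpl1, Mrpl13, Mrpl22, Mrpl30, Mrpl36, Mrpl42, Mrpl47, Mrpl48 and Mrpl53 in the large subunit and Mrps9, Mrps10, Mrps27, Mrps28, Mrps31 and Mrps35 in the small. Their saline means ran from 0.0157 for Mrpl36 to 0.882 for Mrpl47, which encodes the counterpart of bacterial uL29 at the exit of the peptide tunnel. Of the 15, 13 had at least 10 estimated reads in the median pup, so that most were read often but over a long gene. The exceptions were Mrpl36, with 2.42 estimated reads, and Mrpl53, with 1.02. Without the filter on low values, Mrpl47 was the only gene of the 15 with an unadjusted p under 0.05 against saline, with 0.882 TPM in saline and 0.740 in MAM (log2 fold change -0.25, limma unadjusted p = 0.0115).

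Low Protein was the group in which most members stood above saline. Of 34 Mrpl genes tested, 6 rose and 0 fell at an unadjusted limma p of 0.05, with no minimum fold change, and of 22 Mrps genes 3 rose and 0 fell. Over all 5086 genes tested, 8.24% passed in either direction and 3.66% were higher. No gene passed after Benjamini-Hochberg adjustment, and the lowest limma adjusted p of any gene was 0.160, that of Mrpl55. The medians were 0.07 for Mrpl and 0.06 for Mrps on the log2 scale, against -0.0054 over all genes tested. The fold change was above 0 for 32 of 34 Mrpl and 20 of 22 Mrps genes, against 47.8% of all genes tested. The exceptions, Mrpl4, Mrpl38, Mrps34 and Mrps36, had log2 fold changes between -0.08 and -0.0035. These differences are small: the largest, in Mrpl55, was 1.23-fold. Without saline pup 2.1, 4 Mrpl and 5 Mrps genes passed, and without Low Protein pup 2.2 the counts were 6 and 4. The Mrps count was also 5 without saline pup 2.3, Low Protein pup 1.1 or Poly I:C pup 1.1, and 6 without saline litter 2. Without saline litter 1, 4 members rose and 1 fell, while the Mrpl median lay between 0.05 and 0.10 whichever pup or litter was left out.

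The large subunit genes that rose are spread over the particle. Mrpl55 encodes the counterpart of bacterial bL31, Mrpl15 that of uL15 and Mrpl32 that of bL32, while Mrpl46, Mrpl52 and Mrpl57 encode proteins without a bacterial counterpart. In the small subunit, Mrps7 encodes the counterpart of uS7, which organises the head of the subunit, Mrps16 that of bS16, and Mrps18b a copy of the bS18 family that has its own place in the mitochondrial particle. Genes of both classes were among those that rose. In Mrpl, 3 of 19 conserved (15.8%) and 3 of 15 other genes (20%) passed, and in Mrps 2 of 12 (16.7%) and 1 of 10 (10%). Of all genes tested, 8.24% passed in either direction and 3.66% were higher. The counts per class are too small to set the classes apart.

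Mrpl55 was at 3.82, 4.28 and 4.75 TPM (lowest, median and highest) in saline pups and at 4.99, 5.28 and 5.40 in Low Protein pups. Every Low Protein pup was above every saline pup, which held for 0.216% of all genes tested and for no other member (0.747% did not overlap in either direction). The means were 4.28 ± 0.432 and 5.26 ± 0.143 (SD, n = 6), and the log2 fold change 0.30 (SE 0.059). The exact two-sided permutation p of the pup values was 0.00216, the smallest that 6 pups against 6 allow. It follows from the lack of overlap, adds nothing to it and takes no account of litters. The mean of either Low Protein litter was above that of either saline litter, and the log2 fold change was 0.25 without saline litter 1 and 0.35 without saline litter 2.

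Mrpl15 had 1.37, 1.48 and 1.66 TPM in saline and 1.63, 1.71 and 1.98 in Low Protein, with an overlap of 2 saline pups. Its log2 fold change was 0.23 (SE 0.0586, limma adjusted p = 0.370), and this call was kept under every alternative of the processing that was tried. RefSeq lists 2 pseudogenes of Mrpl15, so the assignment of its reads is less certain than for Mrpl55, which has none. Mrpl46 stood at 1.81, 1.85 and 1.96 in saline and at 1.91, 2.05 and 2.25 in Low Protein (log2 fold change 0.15, SE 0.0568, limma adjusted p = 0.543). The saline values of Mrpl46 lay close together, and all but 1 of the Low Protein pups exceeded the highest of them, but its call was lost without saline litter 1 (0.13) or Low Protein litter 2 (0.14).

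Mrpl52 depended on the litter. It had 7.84, 8.48 and 9.80 TPM in saline and 8.26, 10.0 and 11.2 in Low Protein, where litter 1 averaged 8.98 and litter 2 10.9. The log2 fold change of 0.20 (SE 0.0792, limma adjusted p = 0.543) became 0.06 without Low Protein litter 2 and 0.34 without litter 1. The call of Mrpl52 was lost without Low Protein litter 2, saline litter 2 (0.17), saline pup 2.1 (0.17) or Low Protein pup 2.1 (0.16), and on litter means. Mrpl57, at 13.8, 14.7 and 16.4 in saline and 15.7, 17.1 and 18.6 in Low Protein, had a log2 fold change of 0.19 (SE 0.0752), which was 0.12 without saline litter 1 and 0.26 without saline litter 2. The call of Mrpl57 was lost without saline litter 1, Low Protein litter 1 (0.14), saline pup 1.3 or Low Protein pup 1.2 (0.16 each). Mrpl32, at 2.76, 3.67 and 3.89 in saline and 3.50, 3.80 and 4.90 in Low Protein, was the weakest of the 6 (log2 fold change 0.19, SE 0.0917, limma unadjusted p = 0.0450). Its call was lost in 15 of 44 alternatives, among them those without saline pup 2.1 or Low Protein pup 2.3, where the log2 fold change was 0.13.

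The small subunit genes that rose had log2 fold changes near 0.20. Mrps7 had 5.08, 5.84 and 6.63 TPM in saline and 6.08, 6.82 and 7.15 in Low Protein (log2 fold change 0.20, SE 0.0638, limma adjusted p = 0.479). Mrps16 had 7.79, 8.73 and 9.95 in saline and 9.56, 10.1 and 10.5 in Low Protein (log2 fold change 0.19, SE 0.0614). Mrps18b had 2.25, 2.69 and 2.99 in saline and 2.74, 3.01 and 3.44 in Low Protein (log2 fold change 0.20, SE 0.0758). In each of the 3 genes the upper saline pups overlapped the lower Low Protein pups. The differences of Mrps7 and Mrps16 were smaller against saline litter 2 alone, at 0.14 and 0.13, than against litter 1 alone, at 0.26 for both, and neither passed an unadjusted p of 0.05 without saline litter 1. Mrps7 also lost its call without Low Protein litter 2 (0.15), and Mrps18b without Low Protein litter 1 (0.17) or saline pup 1.3 (0.15).

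**Figure D2:**
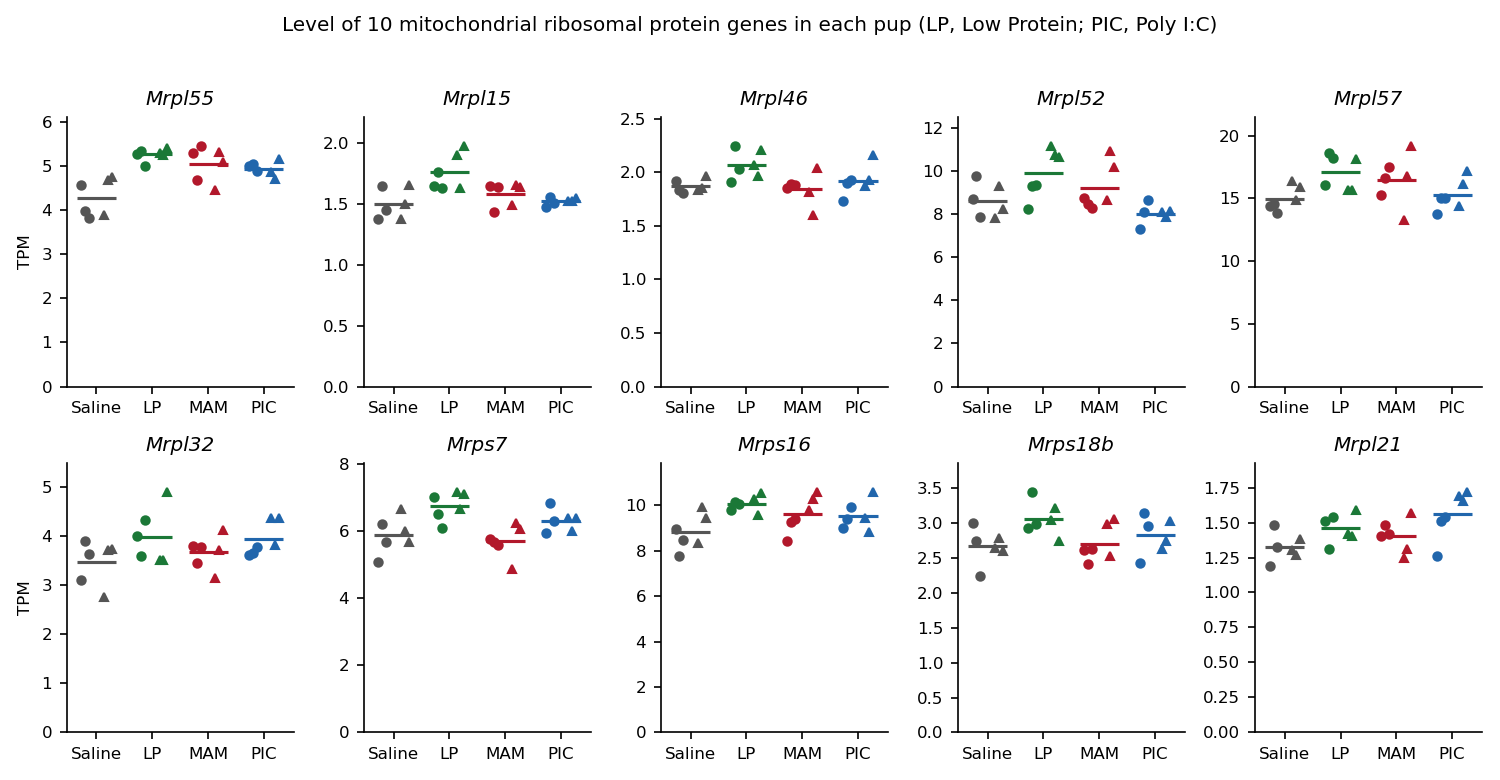
Level in TPM (vertical axes, from 0) of the 9 genes that rose in Low Protein and of Mrpl21 in each pup of saline, Low Protein (LP), MAM and Poly I:C (PIC); circles are litter 1, triangles litter 2, and lines group means of 6 pups. The 6 Low Protein values of Mrpl55 lie between 4.99 and 5.40, above all 6 saline values, while in the other panels Low Protein and saline overlap.

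In MAM, 1 member passed the test against saline. Mrpl55 was the only Mrpl gene to rise and 0 fell, and 0 Mrps genes passed the limma test, where 11.2% of all genes passed in either direction and 3.07% were higher. The medians were 0.01 for Mrpl and 0.0071 for Mrps, against -0.05 over all genes tested. A fold change above 0 was found in 18 of 34 and 11 of 22 genes (52.9% and 50%), against 32.1% of all genes tested. Mrpl55 was at 4.46, 5.19 and 5.45 TPM in MAM (mean 5.04 ± 0.390), a log2 fold change of 0.24 (SE 0.059, limma adjusted p = 0.322). In 2 of the 6 MAM pups it lay within the saline range. The count of 1 member depended on the scaling and on single pups. It was 4 (2 Mrpl and 2 Mrps) when pups were scaled by the median of ratios or the upper quartile, where 9.93% and 9.71% of all genes passed. The Mrpl medians were then 0.0536 and 0.0476, and the medians over all genes -0.0071 and -0.01. The count of members was 2 to 5 without any one of saline pups 1.2, 2.1, 2.2 and 2.3, MAM pups 1.1, 1.2 and 2.1 and Poly I:C pup 2.3. Some of these members fell: 1 rose and 2 fell without saline pup 1.2, 2 and 2 without MAM pup 1.2, and 3 and 2 without MAM pup 2.1. The count was 7, all higher, without saline litter 2, where 14.3% of all genes passed. It was 5 (4 rose, 1 fell) without MAM litter 1. It was 2 without saline litter 1 or MAM litter 2 (1 rose and 1 fell in each) or Poly I:C litter 1 (both rose). No member separated the 6 MAM from the 6 saline pups, which 0.786% of all genes did.

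In Poly I:C, 2 of 34 Mrpl genes rose, 0 fell, and 0 of 22 Mrps genes passed, against 9.95% of all genes in either direction and 4.25% higher. Medians were 0.01 and 0.04, with 0.0081 over all genes, and 0.492% of all genes and none of the members separated the groups without overlap. Mrpl55 was at 4.71, 4.93 and 5.14 TPM (mean 4.93 ± 0.155), with 1 Poly I:C pup inside the saline range, a log2 fold change of 0.21 (SE 0.059) and a limma adjusted p of 0.225. Mrpl21, the counterpart of bacterial bL21, had 1.19, 1.31 and 1.48 TPM in saline and 1.26, 1.60 and 1.72 in Poly I:C. A log2 fold change of 0.23 was found (SE 0.0729, limma adjusted p = 0.278), and it rested on litter 2 of Poly I:C, whose mean was 1.69 against 1.44 in litter 1. Without that litter it was 0.12, and it no longer passed. The count of 2 members was 5 (4 rose, 1 fell) with the trend of fold change over genomic span removed, where 12.4% of all genes passed. It was 4 or 5 without any one of saline pups 1.2, 1.3, 2.2 and 2.3 or Poly I:C pup 1.1. Leaving out either saline litter or either Poly I:C litter also gave 4 or 5. Some of these members fell: 2 rose and 3 fell without saline pup 1.3 or without saline litter 1. Without Poly I:C litter 2, 1 rose and 3 fell, and without saline pup 2.3, 3 rose and 1 fell. In the other cases all rose. The share of all genes passing was 18.6% without Poly I:C litter 1 and 4.37% without Poly I:C litter 2. The 3 comparisons share the 6 saline pups, so a low saline value raises a gene in all of them.

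**Figure D3:**
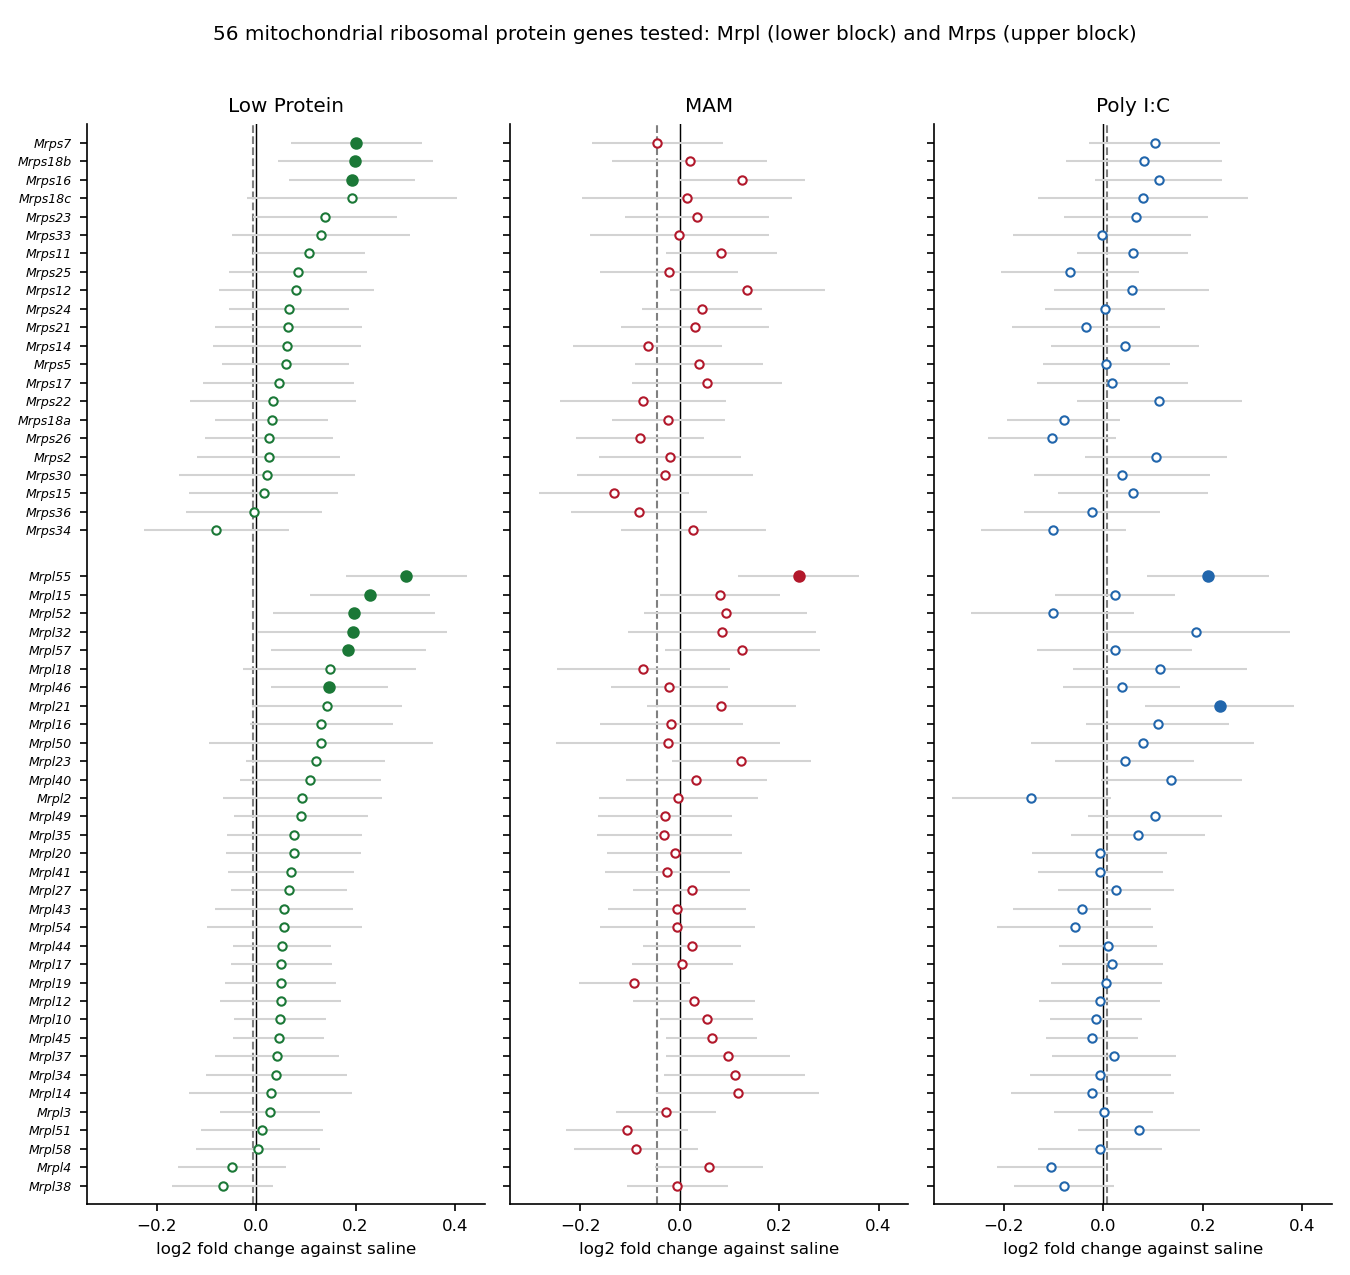
Log2 fold change against saline (horizontal axes) of the 56 genes tested, with a panel for each treatment, ordered by the Low Protein value within Mrpl (34 genes) and Mrps (22 genes); bars are limma 95% confidence intervals, filled points have an unadjusted p under 0.05, and the dashed line is the median of all 5086 genes. In Low Protein 52 of the 56 points lie above 0, while in the other panels the points lie on both sides.

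Over the 4 groups, the limma F test was passed by 8 Mrpl and 2 Mrps genes at an unadjusted p of 0.05, where 16.4% of all genes passed. After adjustment 21 genes of the 5086 remained, of which Mrpl55 was the only member (adjusted p = 0.0497). That call did not hold against the leaving out of single pups: the adjusted p was not under 0.05 without any one of 21 of the 24 pups (range over the 24, 0.0363 to 0.107) nor without any of the 8 litters (0.0579 to 0.224). It was 0.122 without the filter on low values, 0.0812 with the litter as a random effect and 0.659 on litter means. Mrpl15 (limma F adjusted p = 0.143), Mrps7 (0.147), Mrpl52 (0.166) and Mrpl21 (0.249) followed.

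The treatments were also compared with each other, which leaves the saline pups out of the difference. Members were lower in MAM than in Low Protein in 7 cases (5 Mrpl and 2 Mrps) and higher in 0, where 11% of all genes passed and 8.79% were lower. Mrps7 showed the clearest difference, at 4.86, 5.71 and 6.23 TPM in MAM against the 6.08, 6.82 and 7.15 of Low Protein (log2 difference -0.25, SE 0.0638, limma adjusted p = 0.139). Mrpl46 (-0.17) and Mrpl18 (-0.22), the latter the counterpart of uL18, which binds the 5S rRNA in bacteria, followed. Mrpl15, Mrpl16, Mrpl19 and Mrps18b, between -0.14 and -0.18, were the others. The difference of Mrpl18 was -0.18 without Low Protein litter 1 and -0.20 without MAM litter 2, and did not pass in either case. After adjustment, 0 members and 5 genes in all differed between MAM and Low Protein.

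Poly I:C was lower than Low Protein in 5 members (4 Mrpl and 1 Mrps) and higher in 0, where 5.31% of all genes passed and 2.95% were lower. Mrpl52 was at 7.30, 8.10 and 8.65 TPM in Poly I:C, a log2 difference of -0.30 (SE 0.0792, limma adjusted p = 0.535), which was -0.16 and did not pass without Low Protein litter 2. The Poly I:C pups lay without exception below the Low Protein pups in Mrpl15 (1.48, 1.52 and 1.56 against 1.63, 1.71 and 1.98) and in Mrpl2 (2.00, 2.41 and 2.47 against 2.56, 2.64 and 3.01), which encodes the counterpart of uL2, a protein near the peptidyl transferase centre. Of all genes tested, 0.216% were lower without overlap in this comparison. The log2 differences of Mrpl15 and Mrpl2 were -0.21 and -0.24, and that of Mrpl2 did not pass without Low Protein litter 2 (-0.17) or Poly I:C litter 1 (-0.15). Between MAM and Poly I:C, 2 members were higher and 5 lower in MAM, while 23.1% of all genes passed and 17.1% were lower. Mrpl4 was the clearest higher (0.16) and Mrpl51 (-0.18) and Mrps15 (-0.19) the clearest lower, none with a limma adjusted p under 0.05. Mrpl4 lost its call without Poly I:C litter 1 (0.11), Mrpl51 without MAM litter 1 (-0.13), and Mrps15 without either of these litters (-0.16 and -0.13) or when scaled by the median of ratios (-0.15).

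To follow the members within single pups, the log2 values of the genes tested were averaged pup by pup and set against the mean of the saline pups. Low Protein pups had an Mrpl average of 0.087 ± 0.0521 (SD, n = 6), MAM pups of 0.0262 ± 0.0609 and Poly I:C pups of 0.0266 ± 0.0586, and saline pups had an SD of 0.0265 around 0. In Mrps, the averages of the treated groups in that order were 0.0771 ± 0.0446, 0.0018 ± 0.0502 and 0.0245 ± 0.0698. All 6 Low Protein pups were above the saline mean in both subunits, but the lowest of them, pup 2.2 (0.0252 in Mrpl and 0.0134 in Mrps), was within the saline range. Both Low Protein litters gave about the same Mrpl mean, 0.0851 and 0.0889. The treated groups spread more than saline: MAM pup 2.1 (-0.0839) and Poly I:C pup 1.1 (-0.0736) were below every saline pup in Mrpl. Pup 2.3 had the highest Mrpl and the highest Mrps average in each of the 4 groups, although the pups with that number have different dams.

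**Figure D4:**
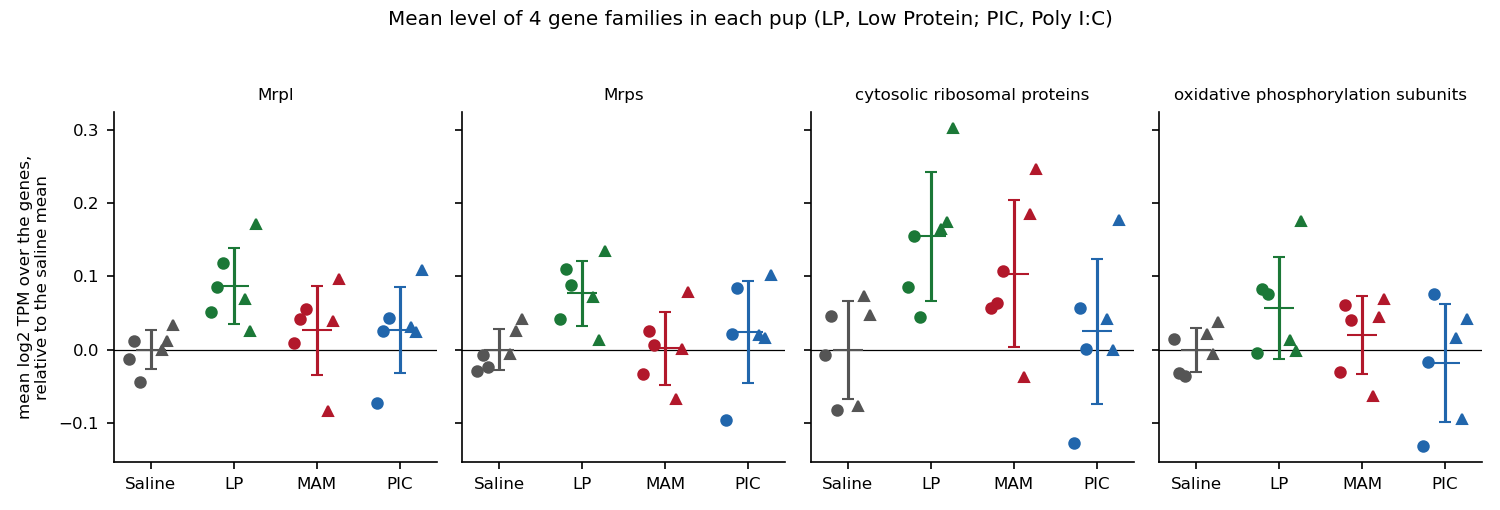
Mean log2 TPM over the tested genes of each family relative to the saline mean (vertical axis) in each pup of saline, Low Protein (LP), MAM and Poly I:C (PIC); circles are litter 1, triangles litter 2, and bars the mean and SD of 6 pups. Low Protein pups lie above 0 in Mrpl and Mrps, with means of 0.087 and 0.0771, and further above 0 in cytosolic ribosomal protein genes, with a mean of 0.155.

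The members can be set beside 2 related families. Of the 77 cytosolic ribosomal protein genes tested, whose products form the ribosome of the cytosol, 37 rose and 0 fell in Low Protein (median log2 fold change 0.17), 18 rose and 0 fell in MAM (0.09), and 0 rose and 1 fell in Poly I:C (0.04). Of 65 nuclear genes for subunits of oxidative phosphorylation, the complexes that mitochondrial translation serves, 6 rose and 0 fell in Low Protein (median 0.05), 5 rose and 1 fell in MAM (0.01), and 0 rose and 1 fell in Poly I:C (-0.02). Among all genes tested, 8.24% passed under Low Protein in either direction (3.66% higher). Under MAM the share was 11.2% (3.07% higher), and under Poly I:C it was 9.95% (4.25% higher). The oxidative phosphorylation genes passed at 9.23%, 9.23% and 1.54% in that order, close to or below the shares in either direction. For the cytosolic ribosomal protein genes the shares were 48.1%, 23.4% and 1.30%. The families are set side by side as counts, shares and medians, and their difference was not tested.

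Other genes of mitochondrial translation were taken as a list of 47, of which 43 were in the table and 23 were tested. In Low Protein 1 rose and 0 fell (median 0.04), in MAM 0 rose and 0 fell (median -0.0053), and in Poly I:C 2 rose and 1 fell (median 0.03). With 8.24%, 11.2% and 9.95% of all genes passing in these comparisons, 1, 0 and 3 of 23 genes are no more than the background or close to it. The gene that rose in Low Protein was Mterf4, which with Nsun4 takes part in the assembly of the large subunit (1.95 ± 0.212 TPM in saline and 2.15 ± 0.147 in Low Protein, log2 fold change 0.15, limma adjusted p = 0.577). In Poly I:C, Noa1 and Mtg2, GTPases of ribosome assembly, rose by 0.11 each, and Dap3, a protein of the small subunit without an Mrps symbol, fell by 0.12. All 6 tested mitoribosome proteins with another symbol had a fold change above 0 in Low Protein, as did 47.8% of all genes tested, and none passed. Among the 6 were Chchd1, Aurkaip1, Gadd45gip1 and Mrpl58 (listed also as Ict1, and a member here). The elongation factor Tufm (13.8 TPM in saline) had a log2 fold change of 0.04.

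The stretch around the annotated starts of the members was searched for the core letters bound by 3 factors known to serve genes of mitochondrial proteins. RefSeq (GRCr8, a newer build than the rn6 used for the values) gave a promoter window of 250 bases before to 50 bases after the start for 56 of the 71 members. The letters searched on both strands were CCGGAAG for ETS factors such as GABPA (NRF-2), GCATGCGC for NRF-1 and AAGATGGC for YY1. The ETS letters were found in 20 of 56 members (35.7%), against 9.63% of all 27457 genes with a window. Among genes that were also tested here, they were in 13 of 44 members (29.5%), against 21.9% of 3979 genes. The YY1 letters, which hold an ATG and so can also mark a start codon, were in 14 of 56 members (25%, against 3.62% of all genes) and in 9 of the 44 tested (20.5%, against 7.46% of tested genes). The NRF-1 letters were in 5 of 56 (8.93%, against 2.77%) and in 4 of the 44 tested (9.09%, against 5.88%). The starts of 18 of 56 members (32.1%, against 11.4%) and of 14 of the 44 tested (31.8%, against 18.4%) lay within 1000 bases of the start of a gene on the other strand that points away, and Mrpl46 and Mrps11 form such a pair with 234 bases between their starts. Mrps11 had a log2 fold change of 0.11 in Low Protein, below the threshold, beside the 0.15 of Mrpl46.

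Of the 9 genes that rose in Low Protein, 8 had a window, and 6 of these held at least 1 of the 3 motifs, which 22 of the 44 tested members (50%) and 31.6% of the tested genes also did. Mrpl55, with the clearest change, and Mrps16 held none. The sequences shown are those of Mrpl55, for its change, and of Mrpl32, Mrps7 and Mrps18b, for their matches, from 200 bases before the start to 30 bases after it, 5′ to 3′ along the gene. Capitals mark the ETS, NRF-1 and YY1 letters on either strand, and the NRF-1 letters overlap their own reverse complement in the longer runs.
Mrpl55, chr10:44488053-44488282, plus strand: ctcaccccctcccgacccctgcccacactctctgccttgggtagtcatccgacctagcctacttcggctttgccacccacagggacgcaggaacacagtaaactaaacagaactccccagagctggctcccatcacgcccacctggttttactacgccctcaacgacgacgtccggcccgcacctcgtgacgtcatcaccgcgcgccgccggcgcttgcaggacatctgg
Mrpl32, chr17:55260451-55260680, plus strand: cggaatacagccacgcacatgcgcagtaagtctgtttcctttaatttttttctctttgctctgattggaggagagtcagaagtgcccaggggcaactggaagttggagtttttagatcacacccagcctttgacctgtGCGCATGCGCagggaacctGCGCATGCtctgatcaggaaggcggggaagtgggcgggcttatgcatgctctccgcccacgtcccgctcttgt
Mrps7, chr10:101342442-101342671, plus strand: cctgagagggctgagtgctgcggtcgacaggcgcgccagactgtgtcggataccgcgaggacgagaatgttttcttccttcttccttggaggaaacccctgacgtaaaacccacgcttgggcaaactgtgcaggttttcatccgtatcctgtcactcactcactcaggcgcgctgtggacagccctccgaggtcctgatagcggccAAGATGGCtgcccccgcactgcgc
Mrps18b, chr20:2842806-2843035, plus strand: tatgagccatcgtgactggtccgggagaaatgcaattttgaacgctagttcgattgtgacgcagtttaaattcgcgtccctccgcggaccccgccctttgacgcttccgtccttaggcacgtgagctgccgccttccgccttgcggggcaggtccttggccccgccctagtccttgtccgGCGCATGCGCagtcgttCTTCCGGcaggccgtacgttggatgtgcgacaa
In Mrpl32 the NRF-1 letters begin 62, 60 and 43 bases before the start. In Mrps18b they begin 20 and 18 bases before it and the ETS letters 3 bases before it, while the YY1 letters of Mrps7 lie just after the start. The YY1 letters of Mrpl32 and Mrps18b fall outside the stretch shown. A match of letters is a description, and no binding was measured.

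The members whose name and place part were not among the genes that changed. Mrps18a was at 1.62 ± 0.107 TPM in saline and 1.65 ± 0.119 in Low Protein, Mrps30 at 3.02 ± 0.297 and 3.06 ± 0.317, and Mrps36 at 1.49 ± 0.0989 and 1.49 ± 0.121. Their 95% confidence intervals of the log2 fold change in Low Protein were -0.08 to 0.14, -0.16 to 0.20 and -0.14 to 0.13. The members with the highest TPM, which appears to be a level per base of gene, were likewise close to saline. In Low Protein Mrpl17 had 33.7, 35.6 and 39.5 TPM against 33.7, 34.8 and 35.2 (95% confidence interval -0.05 to 0.15). Mrpl34 had 32.9, 34.4 and 37.7 against 30.5, 35.8 and 36.5 (-0.10 to 0.18). Within a group, the SD of log2 values of a member had a median of 0.114 over the 56 genes, against 0.135 over all genes tested, and the median SE of a log2 fold change was 0.0632 in Mrpl and 0.0704 in Mrps. RefSeq lists a pseudogene for 23 of the 71 members, and reads shared with such copies may be split by the counting.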

How the data were processed

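RNA of the hippocampus and neocortex of 24 rat fetuses was sequenced (stranded mRNA libraries, paired reads). The authors trimmed reads in Partek Flow (phred 30, minimum length 25), aligned them to rn6 with STAR 2.4.1d, counted them over RefSeq transcripts (Partek E/M) and converted the counts of every sample to TPM plus 0.0001. These deposited TPM values sum to 70350.1 in every pup. Groups were taken from the sample labels. Litters were read from the first digit of the sample number, an assumption that the labels do not state.

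Log2 TPM was fitted with limma 3.58.1 (R 4.3.3, lmFit and eBayes, all 24 pups, group as factor) over the 5086 genes with a mean above 1 in each group. Calls used an unadjusted p under 0.05 and no minimum fold change, and Benjamini-Hochberg adjusted p-values over all genes tested stand beside them. The study states the same p threshold. For Poly I:C, and likewise for Low Protein, it adds a minimum fold change that was not used here. Exact permutation tests used all 924 splits of 12 pups. Depth was estimated from low values as multiples of 1 read per genomic span, where 48.9 to 54.3% lay within 0.05 of a whole number against 10% by chance. The fit was tested on simulated data. Named genes were the lowest p-values per comparison and subunit, genes without overlap, extremes of level, all genes not tested and those whose name and place part. Mrpl16, Mrpl19, Mrpl38 and Mrps11, the promoter motifs and the genes whose promoters are shown were chosen after their values were seen. The members and lists were chosen with earlier results of these data known. The qPCR data were not analysed here.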

Additional observations from a re-analysis of the deposited data

Results flagged for a closer look

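In 4 of 104 sets of 6 pups checked, 1 pup lay further from the others than Dixon's limit for 6 values, and chance alone gives about 1 in 20. These were Mrpl55 in Low Protein pup 1.3 (4.99 TPM, the lowest of the group, with the others at 5.25 to 5.40), Mrpl34 in Poly I:C pup 1.1 (27.3 TPM, with the others at 33.0 to 36.8), Mrps18a in saline pup 2.1 (1.83 TPM, with the others at 1.54 to 1.62) and Mrps36 in MAM pup 2.1 (1.23 TPM, with the others at 1.42 to 1.51). Saline pup 2.1 also had the highest level of ganglionic eminence markers, and its part in the value of Mrps18a was not tested.

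The contrast between 2 treatments was tested in the same fit without the saline pups in the difference. Members with an unadjusted limma p under 0.05 numbered 7 for MAM against Low Protein, 5 for Poly I:C against Low Protein and 7 for MAM against Poly I:C. Among all genes tested, 11%, 5.31% and 23.1% passed in that order. Only the 9 cases with the lowest p-values in their contrast are listed here. MAM was below Low Protein in Mrps7 (log2 difference -0.247), Mrpl46 (-0.168) and Mrpl18 (-0.221). Poly I:C was below Low Protein in Mrpl52 (-0.299), Mrpl15 (-0.205) and Mrpl2 (-0.237). Between MAM and Poly I:C, Mrpl4 was higher in MAM (0.163), and Mrpl51 (-0.178) and Mrps15 (-0.192) were lower. None had a limma adjusted p under 0.05.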

How the results depend on the processing

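Results were recomputed under 45 alternatives, of which 32 leave out a pup or a litter. For the genes named for a comparison, 21 fold changes were followed through the 44 alternatives that apply to single genes. None changed direction, and 7 kept an unadjusted p under 0.05 in each: Mrpl55 against saline in the 3 treatments, Mrpl15 in Low Protein against saline and in Poly I:C against Low Protein, and Mrpl46 and Mrps7 in MAM against Low Protein. Other called members were not followed. With 2 dams in each group, no statement about dams can be firm: on litter means the F test was passed by 3 Mrpl and 1 Mrps genes, Poly I:C and Low Protein differed in 3 members, MAM and Poly I:C in 4, and Mrpl52 in Low Protein was lost. The estimated correlation within litters was 0.0307.

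Without the filter on low values, 2 Mrpl genes differed in MAM and 11 members between MAM and Low Protein, and the Mrps median in Poly I:C was 0.0122. Scaling by the median of ratios, which moved the median of all genes in MAM from -0.05 to -0.0071, gave 2 Mrpl and 2 Mrps genes in MAM with medians of 0.0536 and 0.0460, and 5 Mrpl genes in the F test. Upper quartile scaling gave 2 and 2 genes with medians of 0.0476 and 0.0400, and 4 Mrpl genes in the F test. Under these 2 scalings 9.93% and 9.71% of all genes passed in MAM. With a pseudocount of 1, with a variance trend or with the genomic span trend removed, 1 Mrps gene differed in MAM, and the last setting gave 4 Mrpl and 1 Mrps genes in Poly I:C. Of all genes, 11.3%, 11.3% and 8.22% passed in MAM under these settings, and 12.4% in Poly I:C under the last. The cause of these shifts was not tested.

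The replicate block, with the number in the sample name as a term, gave 6 Mrps genes in Low Protein, 1 in MAM, 6 Mrpl genes in Poly I:C, 13 members between MAM and Low Protein, 8 between Poly I:C and Low Protein and 12 between MAM and Poly I:C. Pups with the same number share no dam. For this reason the numbers were not taken to pair the pups. The deviations of same-numbered pups correlated between -0.23 and 0.47. Those exceeding 0.1 numbered 2 of 6 for Low Protein against saline, 3 for MAM and 4 for Poly I:C. These values are mixed, and whether pups of a number share anything other than a dam was not tested. A pup correlated best with its own number in 1 of 6 cases for Low Protein, 1 for MAM and 3 for Poly I:C.

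With a pup or a litter left out, the count of Mrpl genes ranged from 4 to 7 in Low Protein, 1 to 4 in MAM and 2 to 5 in Poly I:C. That of Mrps genes ranged from 1 to 6, 0 to 3 and 0 to 2. The share of all genes passing moved as well, from 5.30 to 10.4% in Low Protein, 3.17 to 16.9% in MAM and 4.37 to 18.6% in Poly I:C. The Mrpl median ranged from 0.0473 to 0.0998 in Low Protein, 0.0010 to 0.0421 in MAM and -0.0157 to 0.0600 in Poly I:C, and the Mrps median from 0.0479 to 0.0909, -0.0188 to 0.0217 and -0.0060 to 0.0668. The F test gave 5 to 10 Mrpl and 1 to 3 Mrps genes. Members differing numbered 4 to 12 between MAM and Low Protein, 3 to 8 between Poly I:C and Low Protein and 4 to 11 between MAM and Poly I:C. The highest counts came without MAM pup 2.1 (4 Mrpl genes in MAM), saline pup 1.3 (5 Mrpl genes in Poly I:C), saline litter 2 (6 Mrps genes in Low Protein, 3 in MAM), MAM pup 2.3 (12 members), Poly I:C litter 2 (8 members) and MAM pup 1.2 (11 members).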
